A study of Rattus norvegicus with 3 samples.

Results

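Thymic epithelial cells were followed across 1 section of rat thymus through the 5 epithelial labels that the study's deconvolution gave to its bins. The members were the bins whose first label was cTEC, early Pr, mTEC1, mTEC2 or mTEC-prol. They numbered 22764 of the 592087 labelled bins, out of 599178 bins in all. The 7091 bins without a label held at most 99 UMIs each.

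The study set out to place the cells of the rat thymus, and in particular the medullary areas that lack epithelium. The samples came from 8-week-old Lewis rats, an inbred strain, with no treatment named. They were a 10 µm Stereo-seq section on a Chip T, on which the lobes lay back to back, a library of CD45-negative stromal cells sorted after enzymatic digestion, and a library of thymocytes. Each kind of sample was deposited once, so no difference below has a replicate check or a p-value. A bin was a square of 20 coordinate units that can hold parts of several cells. Each bin carried up to 3 labels from RCTD, a program that estimates which reference cell types make up a mixed profile, and the names cTEC to mTEC-prol below are those estimates.

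Cortical thymic epithelial cells (cTEC) present self-peptides to double-positive (DP) thymocytes and carry out positive selection, while medullary thymic epithelial cells (mTEC) attract the selected single-positive (SP) cells and test them against tissue antigens. Among medullary cells, the CCL21-producing kind (mTEC1 here) draws thymocytes in, and the Aire-expressing kind (mTEC2 here) displays tissue-restricted antigens. Early Pr names an epithelial progenitor population, and mTEC-prol a dividing medullary one.

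The labels were checked in the stromal library, since the tables of the section used here hold no gene counts. Its 5 epithelial clusters held 2085 cells, with 448 cTEC, 1018 early Pr, 482 mTEC1, 61 mTEC2 and 76 mTEC-prol cells. Of 28 listed markers, 22 had their highest CPM (UMIs per 1000000 UMIs of the label) in the label they mark. The deposited labels rest on the RNA of these same cells, and the genes behind them are not given in the sources used here. This count therefore describes the labels and tests nothing. The cortical serine protease Prss16 stood at 207 CPM in cTEC and 10.8 CPM in early Pr, the next highest, and the cortical chemokine Ccl25 at 535 CPM in cTEC. These sums came from a minority of the cTEC cells, 25.2% for Prss16 and 26.1% for Ccl25. Psmb11, also on the cortical list, was found in 8.93% of them. Ly75 and Ctsl, the other listed markers highest in cTEC, were in 91.7% and 95.5% of its cells. Both were less specific, at 548 and 1613 CPM in early Pr. Among the 5, Ccl21 was highest in mTEC1 at 12495 CPM, with 6515 CPM in mTEC-prol. Outside the 5 it was higher, at 22085 CPM in the mesenchymal cluster TMC4. Aire, which drives tissue-antigen expression, stood at 468 CPM in mTEC2 and 147 CPM in mTEC-prol, and the chemokine gene Ccl22 at 771 CPM in mTEC2. The division marker Mki67 stood at 348 CPM in mTEC-prol and at most 74.3 CPM elsewhere among the 5.

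Of the listed markers, 6 were highest outside their own label. Dll4, a Notch ligand on the cortical list, was highest in mTEC2 (26.3 CPM against 9.82 in cTEC), and Fezf2, a second regulator of tissue antigens, in mTEC-prol (244 CPM against 232 in mTEC2). Krt14, Tp63 and Itgb4, genes of basal epithelium, were higher in cTEC or early Pr than in mTEC1, and Cxcl12 was highest in early Pr. Early Pr had no marker list of its own. Its leading genes were Cyp2e1, Aldh1a1 and Cthrc1 at 118, 124 and 146 CPM, each at most 43.1 CPM in any other of the 5. Over 12344 genes its profile was closest to cTEC (Pearson r of 0.970 on log2 CPM, across genes, which are not independent), and closer to mTEC1 (0.914) than to mTEC2 (0.637). Genes of mesenchymal cells (Col1a1, Col3a1, Pdgfra, Pdgfrb) summed to 1988 CPM in early Pr, 1935 in cTEC, 1298 in mTEC1, 1318 in mTEC2 and 131 in mTEC-prol, against 31385 in capsular fibroblasts. Their part in the labels' placement was not tested. The lists of thymocyte, endothelial and B-cell genes summed to at most 70.8, 67.9 and 6.58 CPM in any of the 5, and the myeloid list to 266 CPM in mTEC2, mostly Lyz2.

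The balance of the 5 labels turned on the place at which a label stood. As first labels, mTEC-prol led with 7579 bins (33.3% of the 5, 95% exact binomial interval 32.7 to 33.9), followed by mTEC2 with 6562 (28.8%), mTEC1 with 4168 (18.3%), cTEC with 3334 (14.6%) and early Pr with 1121 (4.92%). In the second place the 5 stood in 197333 bins, 8.67 times as many, and there cTEC led with 86307 bins, 43.7% of the 5, while mTEC1 had the fewest, 17069. So cTEC was a second label 25.9 times as often as a first, and mTEC1 4.10 times as often. In the stromal library the order was another again, led by early Pr (48.8% of the 5 kinds of cell), with mTEC2 at 2.93% and mTEC-prol at 3.65%. Bins and sorted cells are different denominators, and no ratio between them is drawn. Intervals here and below cover counting error only, and neighbouring bins share tissue and RNA.

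An epithelial label almost never stood alone. Of the epithelial bins, 1.01% carried a single label, against 60.3% of the other labelled bins. The second label was a thymocyte stage in 22528 of 22535 bins, and no bin had epithelial labels in both of the first places (0 of 248654 bins with a second label, which allows up to 0.00121%). The thymocyte partner had the larger deposited weight in 83.1% of the epithelial bins, from 74.1% for early Pr to 92.7% for mTEC2, against 1.25% in bins with another first label. The first label was marked confident in 83.2% of cTEC bins, 55.8% of mTEC2, 50.5% of mTEC-prol, 42.7% of mTEC1 and 41.3% of early Pr bins. The median count was 349 UMIs in cTEC, 401 in early Pr, 514 in mTEC1, 539 in mTEC2 and 528 in mTEC-prol bins, and 320 in bins with another first label. Depth moved with label and region throughout.

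The section was divided by the authors into a capsular area, cortex, and 2 medullary regions named mECA and mEFA, of which mEFA is by the title's wording epithelium-free. How mECA and mEFA were drawn is not given in the sources used here, and epithelial genes may have entered the rule. By the first label of the square bins, mECA was the region that held the largest part of each of the 3 mTEC labels. For mTEC2, 54.8% of bins (53.6 to 56.1) were in mECA and 394 bins in mEFA, for mTEC-prol 49.8% and 422 bins, and for mTEC1 40.2% and 465 bins. mECA holds 6.79% of labelled bins and mEFA 3.27%. cTEC lay in the cortex (71.9%) and the capsular area (27.2%), and only 5 and 24 of its 3334 bins were in mECA and mEFA. Among first labels early Pr was the capsular one, with 74.1% of its bins (71.5 to 76.7) in an area that holds 20.8% of the labelled bins. As a second label it had 34.7% of its bins in the capsular area and 52.4% in the cortex. With a label counted in any of its 3 places the mTEC2 share in mECA was 31.4%, and in segmented cell bins, a second cut of the same section, 39.1%. In segmented cell bins the cortex held the largest part, with 42.5% of mTEC1, 47.4% of mTEC2 and 49.4% of mTEC-prol. The cortex also led among second labels, with 46.4%, 50.5% and 52.5%.

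**Figure D1:**
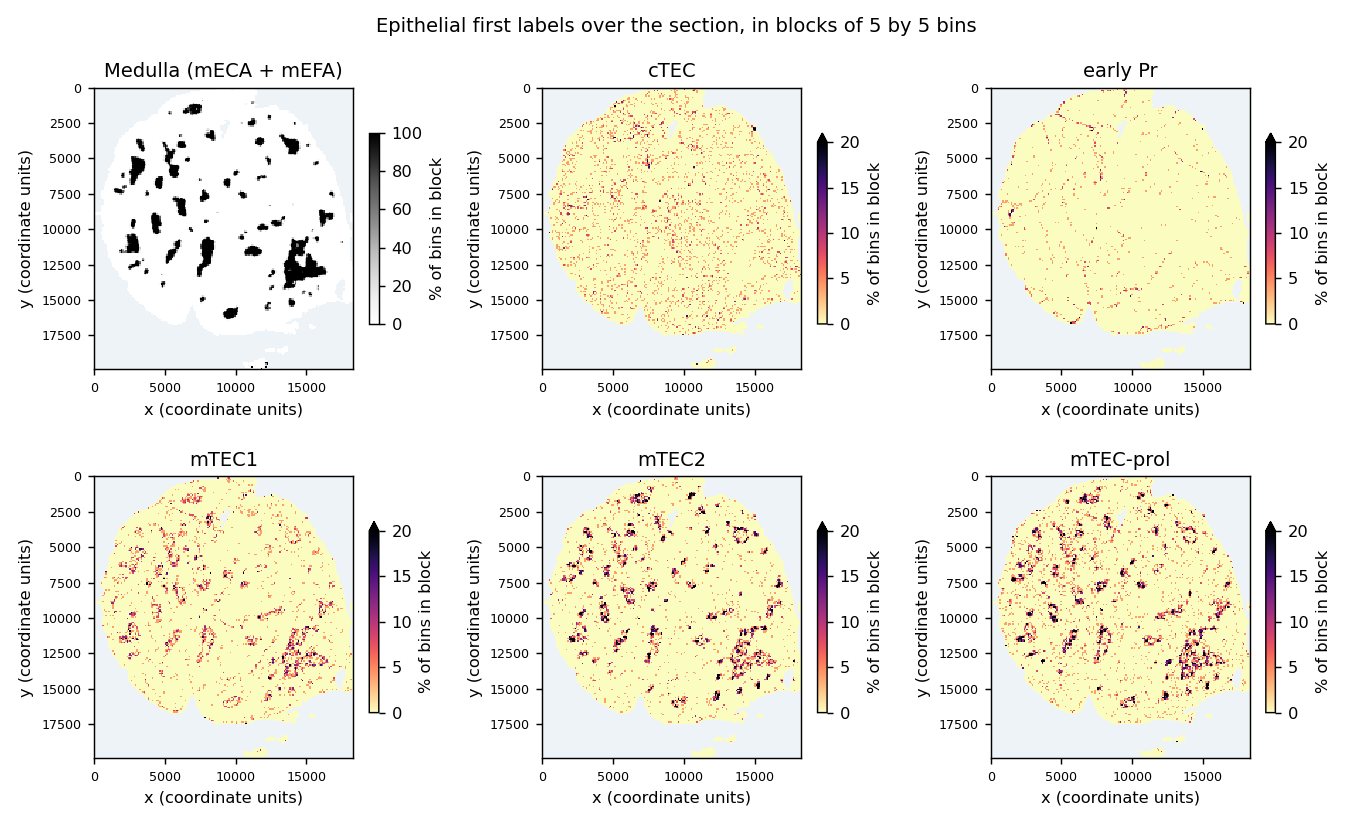
Maps of the section in blocks of 5 by 5 bins, with both axes in coordinate units. The first panel shades the share of each block's labelled bins in the 2 medullary regions, and the other panels the share with each epithelial first label, with the colour scale ending at 20%. The 3 mTEC panels repeat the medullary pattern, cTEC is spread over the cortex, and early Pr follows the outline, where 62.2% of its bins lay.

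Of the mTEC labels, mTEC1 was the one least depleted in the epithelium-free region. It held 4.17% of mECA bins and 2.40% of mEFA bins, a ratio of 0.577 (0.521 to 0.638). mTEC2 went from 8.96% to 2.04%, a ratio of 0.227 (0.205 to 0.252), and mTEC-prol from 9.39% to 2.18%, a ratio of 0.232 (0.210 to 0.257). The interval of mTEC1 lies clear of both others, and those of mTEC2 and mTEC-prol overlap. As second labels the 3 were nearer to even, with ratios of 0.928 for mTEC1, 0.867 for mTEC2 and 0.672 for mTEC-prol. cTEC and early Pr went the other way: their first labels were 9.97 times (3.80 to 26.1) and 1.73 times (1.02 to 2.94) as frequent in mEFA as in mECA, on 24 against 5 and 25 against 30 bins. As second labels, on 1061 against 888 and 1190 against 1484 bins, their ratios were 2.48 and 1.66. Epithelial labels were also given in mEFA. Any of the 5 labels came first in 6.87% of its bins and second in 57.5%, against 22.6% and 63.8% in mECA. Over the section, second labels had low median weights, from 0.164 (mTEC2) to 0.230 (mTEC-prol), and 27.6% (mTEC1) to 57.2% (cTEC) were marked confident. Within 100 units of a bin outside the medulla lay 62.9% (mTEC2) to 70.4% (mTEC-prol) of the mTEC first labels of mEFA, against 53.5% of all its bins. Whether these labels stand for epithelial cells was not tested. The median count was 516 UMIs in mECA and 490 in mEFA.

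The medulla was made up of separate areas, 27 of which held at least 500 labelled bins. Their mTEC2 share ran from 4.49% to 11.8% with a median of 7.66%, mTEC-prol from 3.77% to 13.4% with a median of 8.17%, and mTEC1 from 1.39% to 5.77% with a median of 3.60%. mTEC2 and mTEC-prol each exceeded mTEC1 in 27 of 27 areas, and mTEC-prol exceeded mTEC2 in 16. In the 18 areas with at least 100 bins of both regions, mTEC2 and mTEC-prol were more frequent in mECA than in mEFA in all 18, and mTEC1 in 14. mTEC2 exceeded mTEC1 in mECA in 18 of these areas and in mEFA in 9. Areas of 1 section are not replicates, and these counts carry no test.

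Within mECA, the mTEC labels in the first place lay deeper than the average bin on the side facing mEFA. Median distance to the nearest mEFA bin was 152 units for mTEC-prol (95% interval 146 to 156), 144 for mTEC2 (141 to 152), 126 for mTEC1 (120 to 128) and 108 for all mECA bins. On the side facing out of the medulla the medians were 82.5 to 84.9 units, against 89.4 for all mECA bins. Within 100 units of mEFA lay 40.1% of the mTEC1 bins of mECA, 30.7% of mTEC2 and 28.6% of mTEC-prol. mTEC1 was thus the nearest to the epithelium-free side of the 3. In the second place the median distances to mEFA were 100 units for mTEC1, 108 for mTEC2 and 113 for mTEC-prol. There mTEC1 was again the nearest of the 3, but it lay nearer to mEFA than the average bin, and mTEC2 was level with it.

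Many mTEC labels were also found outside the medulla as drawn. The cortex held 31.3% of mTEC1, 31.1% of mTEC2 and 34.1% of mTEC-prol bins, and these were gathered at its inner border. Within 100 units of a medullary bin lay 60.3% of the cortical mTEC1 bins (57.6 to 62.9), 59.3% of mTEC2 (57.1 to 61.4) and 51.5% of mTEC-prol (49.5 to 53.4), against 7.84% of cTEC and 10.5% of all cortical bins. In the innermost 40 units mTEC-prol took 4.74% of bins, mTEC2 4.44% and mTEC1 2.65%. Past 800 units these shares were 0.252%, 0.151% and 0.0772%. cTEC ran against them, at 0.307% in the innermost band and 0.563% past 800 units. The median count was also lower farther out, 450 UMIs in the innermost band and 287 past 800 units, and its part in the pattern was not tested.

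**Figure D2:**
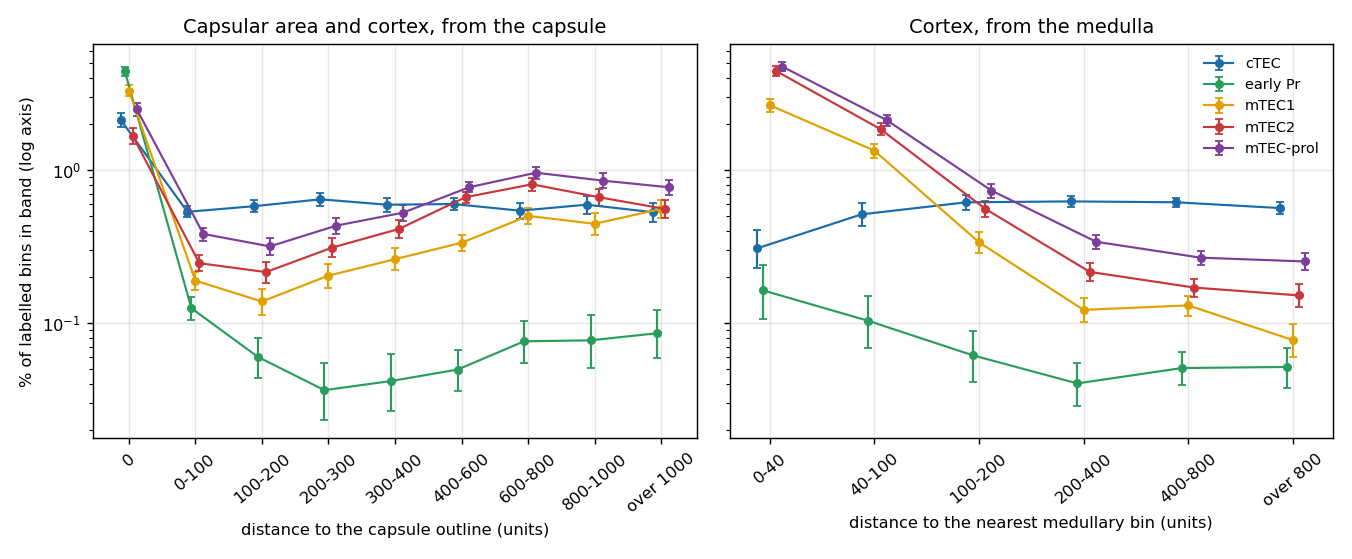
Share of labelled bins with each epithelial first label, on a log axis, by distance to the capsule outline (left, capsular area and cortex; the 0-100 band leaves out distance 0) and by distance to the nearest medullary bin (right, cortex). Points are shares with 95% exact binomial intervals, set slightly apart. In the left panel each of the 5 labels is most frequent on the outline itself, early Pr above the rest at 4.41%, and in the right panel the 3 mTEC labels are scarcer farther from the medulla while cTEC is not.

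On the capsule outline all 5 labels were more frequent as first labels than just inside it, by very different amounts. The 15813 labelled bins at distance 0 from the capsule outline were 2.67% of the section but held 62.2% of the early Pr bins (59.3 to 65.0), 12.5% of mTEC1, 10.0% of cTEC, 5.19% of mTEC-prol and 4.01% of mTEC2. For early Pr this share was 37.4% in segmented cell bins and 17.0% with labels in any place. Early Pr made up 4.41% of outline bins and 0.125% of bins up to 100 units further in. mTEC1 went from 3.30% to 0.189%, mTEC-prol from 2.49% to 0.381%, cTEC from 2.12% to 0.532% and mTEC2 from 1.66% to 0.245%. Among second labels, early Pr (19.1% on the outline against 3.89% inside it) and mTEC1 (5.82% against 1.86%) were again more frequent there. But mTEC2 was at 3.1% in both, and cTEC (12.3% against 13.6%) and mTEC-prol (3.52% against 4.73%) were less frequent on the outline. The capsular area consists of the bins within 100 units of the outline, so the region and the distance are 1 measurement here.

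Except for early Pr, labels on the outline were less often marked confident than over the section. The first label was marked confident in 41.9% of early Pr outline bins, 31.9% of cTEC, 20.9% of mTEC-prol, 13.8% of mTEC1 and 9.51% of mTEC2. Over the section the early Pr figure was 41.3%. For cTEC in the cortex over 100 units from the medulla the figure was 91.4%. The largest touching group of 1 label on the outline had 9 bins, of early Pr, and the other 4 labels reached 3 to 5. Median count was 347 UMIs on the outline and 309 in the band inside it. What the outline's own tissue adds to these labels was not tested.

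As a first label, early Pr was sparse away from the outline. Its share of cortical and capsular bins was 0.0363% between 200 and 300 units and 0.0855% past 1000 units. In the second place it stood in 2.24% and 3.33% of the same bins. The 235 cortical bins with early Pr first lay at a median of 341 units from the medulla (269 to 451). This interval overlapped that of cTEC (446 units, 428 to 467) and lay beyond the 72.1 units of mTEC1 and mTEC2.

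The thymocyte named second in a bin followed the region and then departed from it. For cTEC it was a DP stage in 60.1% of bins (DN, the double-negative stage, in 30.4%). If second labels had followed the first labels of thymocyte bins in the same regions, 40.2% DP and 49.3% DN would have been found. In the cortex alone cTEC bins had 61.8% DP and 28.8% DN, against a regional 40.4% and 48.7%. Where a thymocyte stood first and cTEC second there, DP came to 40.3% and DN to 52.2%. The DP excess and the DN deficit of cTEC thus went with cTEC as the first label. For mTEC2, agonist-selected or regulatory T cells (Treg) came second in 27.1%, mature SP in 22.9%, DP in 22.0% and immature SP in 17.9%. mTEC-prol had 30.5% DP and mTEC1 29.3%. Over the section as a whole DN partners were under the regional mix for all 5, at 0.719 of it for early Pr, 0.616 for cTEC, 0.518 for mTEC1, 0.459 for mTEC2 and 0.304 for mTEC-prol. In mECA alone they were over it for mTEC1 and mTEC2, at 1.27 and 1.40 times.

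**Figure D3:**
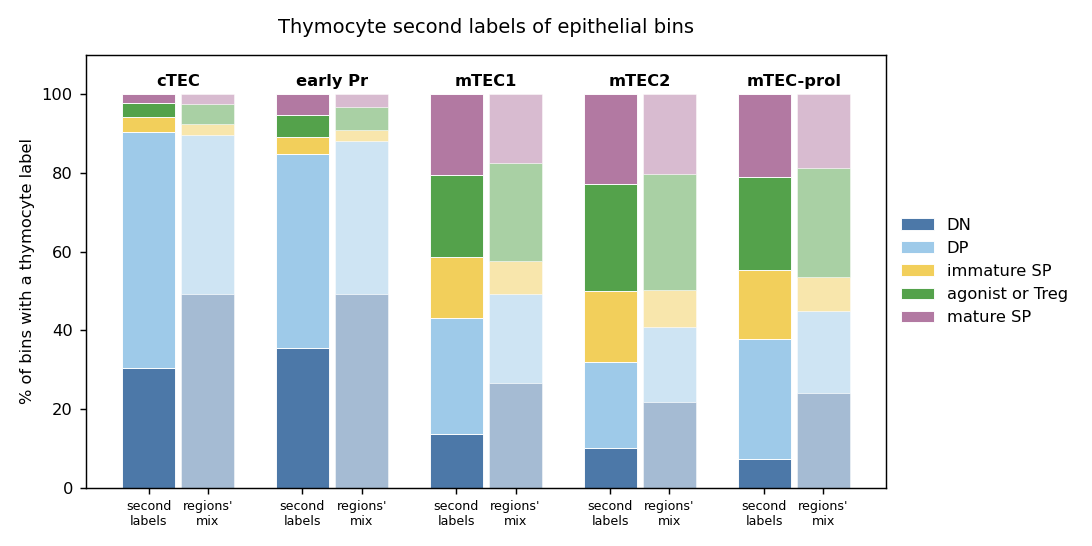
Stacked bars of the thymocyte class in the second label of epithelial bins (solid, left of each pair) and the mix of thymocyte first labels in the same regions (pale, right), in % of bins with a thymocyte label. The DN part is smaller in the solid bar for all 5 labels, and cTEC has the largest DP part, 60.1%.

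Inside mECA the mTEC labels shared a pattern in all classes but DN. There, where 5.05% of thymocyte first labels are DP, DP came second in 17.9% of mTEC1, 15.8% of mTEC2 and 17.1% of mTEC-prol bins, 3.55, 3.13 and 3.38 times that share. Immature SP stages came second in 20.9%, 19.6% and 21.6%, against 13.6%. Agonist-selected cells and Treg were fewer, at 27.9%, 31.7% and 30.1% against 46.2%, and mature SP cells were near the regional 31.7%, at 28.8%, 27.9% and 28.7%. DN parted them: against 3.57% in the region, it came second in 4.54% of mTEC1 (3.60 to 5.65) and 5.01% of mTEC2 bins (4.32 to 5.77), but in 2.47% of mTEC-prol bins. With the labels the other way round, thymocyte first and epithelial second, DP came first in 4.16%, 4.06% and 4.48%. Of the 31101 mECA bins without an epithelial first label, 25645 had an epithelial second label. The 5.05% is therefore largely the share of these same bins, and an excess over it could hardly appear in them. The DP share of a pair thus differed with which label stood first, and no more is read from this.

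In the cortex the SP stages and the agonist-selected or Treg class exceeded the regional mix. Agonist-selected cells or Treg came second 3.71 times as often as the cortical 5.23% in mTEC1 bins, 4.59 times in mTEC2 and 3.56 times in mTEC-prol bins. Mature SP cells are 2.54% of cortical thymocyte first labels, and they came second in 16.1% of mTEC1, 17.2% of mTEC2 and 13.7% of mTEC-prol bins, 6.34, 6.76 and 5.42 times as often. In cTEC bins they came second in 2.15%, 0.846 of the regional share. These cortical mTEC bins are for the most part those at the inner border described above.

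The deposited mTEC_1 score, whose gene list is not given in the sources used here, is computed from the same RNA as the labels and is described without a test. It was over 0 in 56.2% of mTEC-prol bins (55.1 to 57.3), 47.0% of mTEC1, 44.2% of mTEC2, 24.1% of cTEC and 18.4% of early Pr bins. Where none of the up to 3 labels was epithelial, it was over 0 in 4.18%. mTEC1 therefore did not lead, and whether the score's name refers to that label is not known. The order mTEC-prol, mTEC1, mTEC2 held in each of the 4 regions: in mECA 69.4%, 61.2% and 53.3%, in mEFA 46.0%, 38.7% and 22.8%, in the cortex 46.5%, 43.2% and 39.7%, and in the capsular area 30.8%, 26.6% and 15.7%.

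**Figure D4:**
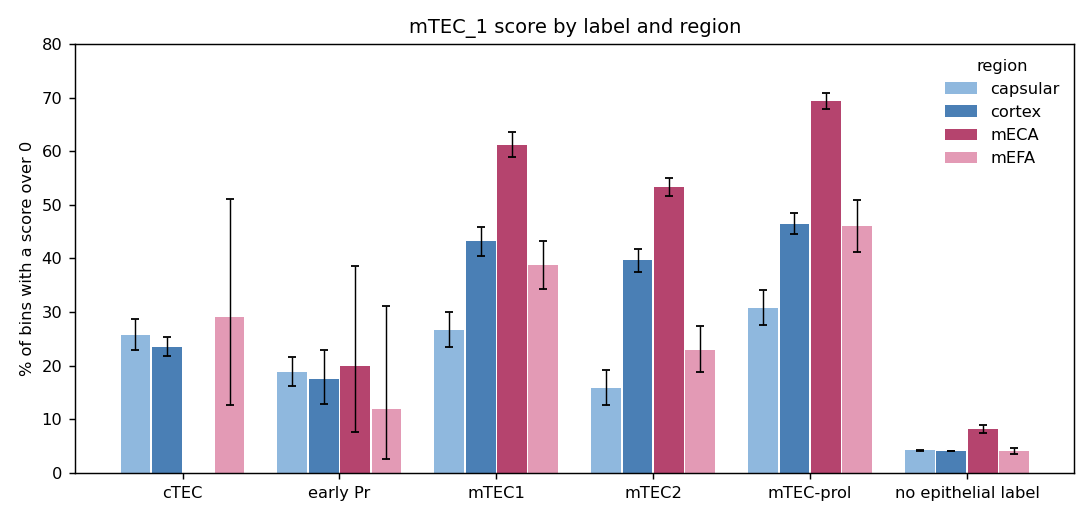
Share of bins with an mTEC_1 score over 0, by first label and region, with 95% exact binomial intervals; the 5 cTEC bins of mECA are not drawn. In each region mTEC-prol stands above mTEC1 and mTEC1 above mTEC2, with overlapping intervals in some, and bins without an epithelial label stay at or under 8.25%.

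Deeper bins had the score over 0 more often. In mECA the mTEC-prol share went from 58.4% among the shallowest of 4 equal depth classes to 75.4% among the deepest, mTEC1 from 47.5% to 67.7% and mTEC2 from 36.4% to 60.8%, with the same order in each class. Over the section as a whole the order of the surroundings was another. Among the other bins within 60 units of an mTEC2 bin 36.1% had a score over 0, around mTEC-prol 34.6%, around mTEC1 28.0%, around early Pr 12.9% and around cTEC 10.0%. Pooled over regions, mTEC2 bins thus had the lowest share of the 3 themselves and the highest share around them. By region this held only in the cortex, with 31.4% around mTEC2, 26.9% around mTEC-prol and 24.5% around mTEC1. In mECA the share around mTEC-prol was higher, at 46.2% against 44.4% around mTEC2. In mEFA and the capsular area the share around mTEC2 was the lowest of the 3, at 16.4% and 12.5%.

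Neighbourhoods were read within 60 units as the count of a label around another, over the count expected if each neighbouring bin carried the label at its region's share. Each of the 5 labels was found around itself more than its region gave: 6.17 times for early Pr (5.80 to 6.56), 3.45 for cTEC (3.30 to 3.60), 2.61 for mTEC1 (2.54 to 2.67), 2.58 for mTEC2 (2.55 to 2.61) and 2.17 for mTEC-prol (2.14 to 2.20). The strongest pair of different labels was early Pr and mTEC1, with 4.43 times as many mTEC1 around early Pr (4.15 to 4.72). Both early Pr values were lower with both bins on the capsule outline, where most early Pr bins lie: 1.95 (1.81 to 2.09) around itself, under mTEC2 (2.57) and cTEC (2.17) around themselves, and 1.72 (1.57 to 1.88) for mTEC1 around early Pr. mTEC-prol around mTEC2 came to 1.96 (1.93 to 1.99), above mTEC-prol around mTEC1 at 1.70 (1.66 to 1.73) and mTEC2 around mTEC1 at 1.53 (1.50 to 1.57). mTEC2 around cTEC came to 1.03 (0.943 to 1.13), the only pair of different labels, with its reverse (1.03), whose interval held 1.

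The cTEC ratios to mTEC1 and mTEC-prol, 1.58 and 1.29, did not keep their direction. With confident labels only they were 0.712 and 0.470, and in segmented cells 0.843 and 0.862. Capsule outline bins, where all 5 labels were more frequent as first labels than in the rest of the capsular area, share 1 region with the bins inside them. With both bins in the cortex the ratios of cTEC to mTEC1, mTEC2 and mTEC-prol were 0.943, 0.710 (0.622 to 0.808) and 1.00. With both bins in the cortex over 100 units from the medulla they were over 1 again, at 1.96 (1.67 to 2.29), 1.30 (1.11 to 1.50) and 1.69 (1.52 to 1.88).

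**Figure D5:**
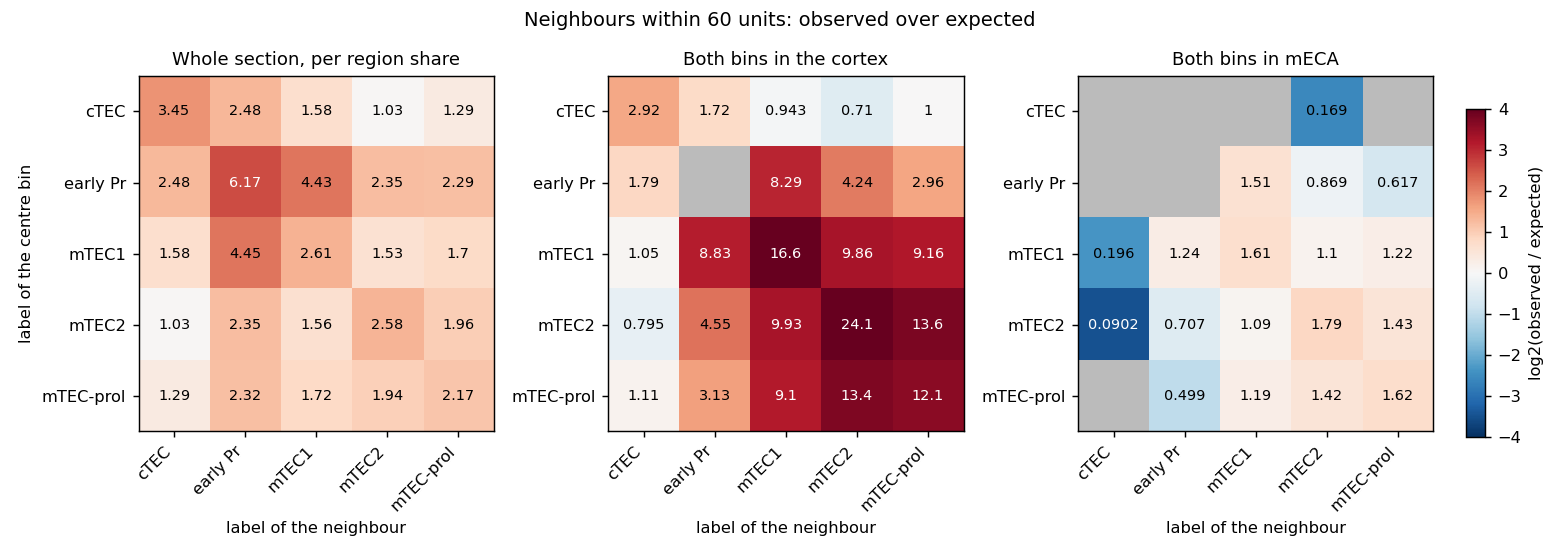
Observed over expected neighbours within 60 units, for each centre label (rows) and neighbour label (columns), over the section with expectation by region (left), and with both bins in the cortex (middle) or in mECA (right). Grey cells had an expected count under 5 or no such neighbour. Colours are log2 of the printed ratio; the mTEC labels reach 24.1 in the cortex and 1.79 in mECA.

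Among mECA bins alone the ratios within and between the mTEC labels were smaller: 1.79 for mTEC2 around itself, 1.62 for mTEC-prol and 1.61 for mTEC1 around themselves, 1.43 for mTEC-prol around mTEC2, 1.22 for mTEC-prol around mTEC1 and 1.10 for mTEC2 around mTEC1. In mECA mTEC2 and mTEC-prol thus lay together more than either did with mTEC1. Early Pr stood apart from mTEC-prol there, with a ratio of 0.617 (0.434 to 0.849) on 35 neighbours. With both bins in mEFA the order was another. There mTEC-prol around mTEC1 came to 1.69 (1.52 to 1.88) and mTEC-prol around mTEC2 to 1.43 (1.26 to 1.62), with overlapping intervals.

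mTEC2 formed the largest groups. Of mTEC2 bins 64.4% touched another mTEC2 bin by a side or corner, and the largest connected group had 47 bins. mTEC-prol followed with 55.6% and 44 bins, then mTEC1 with 42.9% and 15, early Pr with 28.9% and 9, and cTEC with 23.7% and 8. Groups of over 10 bins numbered 61 for mTEC2, 42 for mTEC-prol, 2 for mTEC1 and 0 for early Pr and cTEC. With the 5 labels joined, the largest group had 196 bins.

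In the cortex more than 100 units from any medullary bin, mTEC2 remained clustered. There were 832 mTEC2 bins there, 0.227% of bins, and mTEC2 was found around mTEC2 43.1 times (41.4 to 44.9) as often as its share, in groups of up to 40 bins. mTEC1 reached 30.1 and early Pr 27.5. mTEC-prol, with more bins (1253), reached 9.33 with groups of up to 13, and cTEC 2.90 with groups of up to 8. The first label was marked confident in 49.0% of these mTEC2 bins and in 27.8% of mTEC-prol bins. Their median counts were 486 and 420 UMIs, where the cortex at this distance had 297.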

How the data were processed

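Per the labels' protocols, stromal cells and thymocytes were profiled as single-cell libraries and 1 section on Stereo-seq. The submitters' processing notes name mRatBN7.2, Cell Ranger 8.0.0 and Seurat 5.3.0, with no role given. The authors deposited a UMI count matrix per library and, for the section, metadata with UMI counts per bin, regions, capsule distances, RCTD labels, weights given as a fraction, and the mTEC_1 score. The deposited percent of mitochondrial counts was 0 throughout and was not used. Thymocyte counts were not used.

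Bins were assigned by the first label. A share's 95% interval is exact (Clopper-Pearson), that of a ratio of shares comes from its log. Neighbours were bins within 60 units. Stromal counts were summed per deposited label into CPM, without a filter on cells or a doublet caller. The named leading genes were the 3 per label with the largest CPM ratio to the next label, among genes with at least 100 UMIs and in at least 25% of its cells. The 2 libraries shared 38 barcodes, 8 of them epithelial cells. Neighbour counting was tested on simulated data of 90000 bins, where independent labels gave 1.02. The members and lists were chosen with earlier results of these data known. Python 3.11.15, NumPy 2.4.6, SciPy 1.17.1 and pandas 2.3.3 were used.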

Additional observations from a re-analysis of the deposited data

How the results depend on the processing

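No paired analysis was possible because each kind of sample was deposited once, and no replicate could be left out. The alternatives were run on 8 summary values and on the other shares, medians and ratios given above, 868 values in all, of which 191 fell inside the 95% interval of the value given above, 660 fell outside it and 17 crossed 1. With intervals this narrow a value can move without changing its order. Some orders did change, such as which region held the largest part of the mTEC labels.

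The mTEC2 share in mECA, 54.8%, was 60.5% with confident labels, 58.3% at or above the median depth, 58.7% by the largest weight, 39.1% in segmented cells, 31.4% with a label in any place, 26.7% in the second place alone, 49.7% over 100 units from the other region class and 6.90% in the 29 bins with 1 label. The early Pr share at distance 0, 62.2%, was 65.9% by the largest weight, 37.4% in segmented cells, 17.0% in any place, 14.6% in the second place alone, 26.7% in 15 bins with 1 label and 0% in the cortex, which has no such bin. The share of cortical mTEC2 bins near the medulla, 59.3%, was 63.4% with confident labels, 64.4% at the greater depth, 67.1% in segmented cells, 70.8% by the largest weight, 33.1% in any place and 0% in 14 bins with 1 label. The mature SP share of mTEC2 partners, 22.9%, was 24.8% with confident labels and 24.1% at the greater depth.

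The mTEC-prol share with a score over 0, 56.2%, was 65.3% with confident labels, 60.5% at the greater depth, 40.4% in segmented cells, 32.5% in any place, 57.7% and 54.5% in the left and right parts, 34.6% in the surrounding bins and 18.9% in bins with 1 label. Its share of the 5, 33.3%, was 30.6% with confident labels, 34.9% at the greater depth, 34.9% in segmented cells, 49.1% by the largest weight, 21.8% in any place, 20.5% in the second place alone and 53.3% in bins with 1 label. The ratio of mTEC-prol around mTEC2, 1.96, was 1.70 with confident labels, 1.88 at the greater depth, 2.17 in segmented cells, 4.39 by the largest weight, 1.25 in any place, 1.90 and 2.02 in the left and right parts, 2.19 within 30 units, 1.68 within 120 units, 1.87 without the touching bins and 1.72 with expectation by region, capsule distance and depth. The second place alone and this last expectation were chosen after seeing the data. Markers highest in their own label numbered 21 or 22 of 28 throughout.

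Of the ratios whose reported interval left out 1, those that crossed it were between cTEC and mTEC1 or mTEC-prol. The ratios between cTEC and mTEC2, both 1.03 with intervals that held 1, ran from 0.353 to 1.26 and from 0.428 to 1.25. For mTEC1 around cTEC the ratio was 0.712 with confident labels, 0.843 in segmented cells and 0.919 in any place, and for cTEC around mTEC1 0.892, 0.700 and 0.921. For mTEC-prol around cTEC it was 0.470, 0.862 and 0.996, with 0.963 in the right part and 0.936 without touching bins. For cTEC around mTEC-prol it was 0.579, 0.718 and 0.998, with 0.939 at the greater depth, 0.973 in the right part and 0.939 without touching bins. The cause was not tested. Label shares moved with depth, whose part was not tested: within mECA, mTEC-prol took 4.37% of the shallowest of 4 equal depth classes and 15.8% of the deepest.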

Other observations

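A label in the third place stood in 1530 epithelial bins, 701 of which had mTEC2 first, and it was mostly mesenchymal or vascular. The mesenchymal label TMC4 was the most frequent there, in 263 of the 701 mTEC2 bins, 79 of 413 mTEC-prol bins and 37 of 205 mTEC1 bins. For mTEC1 it was the venous endothelial label, in 51 bins. For cTEC and early Pr it was the mesenchymal label TMC1, in 28 of 100 and 33 of 111 bins, and capsular fibroblasts stood in 22 of the early Pr bins and 13 of the cTEC bins.

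The segmented cell bins gave 34005 epithelial first labels among 572683 labelled cells. Their composition kept the order of the square bins, with cTEC at 15.0%, early Pr at 4.42%, mTEC1 at 15.8%, mTEC2 at 29.9% and mTEC-prol at 34.9%. Single placements held less well. A labelled cell centred in an mTEC2 bin was itself mTEC2 in 41.7% of cases, in cTEC bins the same label recurred in 40.1%, in mTEC-prol bins in 36.8%, in mTEC1 bins in 30.4% and in early Pr bins in 24.8%, where these labels are 0.262% to 2.07% of all cells. Cells in mTEC1 bins were mTEC-prol in 14.2% and mTEC2 in 6.18%. Both sets of labels come from the same RNA.

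The 2 sides of the section, parted at its median x, had similar mixes of the 5 labels, with early Pr differing most, at 5.89% on the left and 3.83% on the right. The capsular share of mTEC1 bins was 20.8% on the left and 13.6% on the right, and of mTEC2 bins 10.7% and 5.20%.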
